A study of Mus musculus with 24 samples.

Results

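The miR-23, miR-24 and miR-27 clusters are 2 groups of miRNA genes that arose as copies of each other. Of the 599 mouse and viral miRNA probes on the panel, 5 belong to them and were chosen by name: mmu-miR-23a and mmu-miR-27a of the a cluster, mmu-miR-23b and mmu-miR-27b of the b cluster, and mmu-miR-24, which both clusters encode. The prefix for the mouse is left out from here on. Their levels were followed in 24 samples of a mouse model of metastatic mammary carcinoma, to compare the a cluster with the b cluster in tumors, metastases, normal tissues and cultured cells. The tumors grew in BalbC nude mice, which lack a thymus, from JygMC(A) mouse mammary carcinoma cells that carried GFP and luciferase and were injected into the mammary fat pad, so all tumor samples derive from a single cell line.

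Laser capture microdissection gave epithelial areas of the primary tumor, named carcinoma (n = 5), and areas of spindle-shaped cells, named EMT-like (n = 7), together the 12 primary tumor (PT) samples. It also gave lung metastasis (n = 4), normal mammary gland (NMG, n = 2) and normal lung parenchyma (normal lung, n = 2) of the same mouse strain. The JygMC(A) GFP/Luc cells were grown without a host as a monolayer (n = 2) or as 3D-spheres on low adherent plates (n = 2), and the 4 are named cultures. Several tumor and metastasis samples share an animal, and replicate 1 of carcinoma, of EMT-like areas and of lung metastasis each carry a label that names several animals. The normal tissues carry animal labels of their own with no tumor sample among them, so the tissue and any difference in handling cannot be told apart. The summed normalized value of 7 epithelial marker miRNAs had a median of 2806 in carcinoma and 396 in EMT-like areas, with none of the 7 called different. In the 4 cultures, miR-126, which marks endothelial cells, was at 0.

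In mammals a miRNA guides the silencing complex to mRNAs that pair with its seed, bases 2 to 8 of the mature strand. The a cluster and the b cluster are each transcribed as a single precursor from which 3 hairpins are cut, so the mature levels depend on transcription, on processing and on the stability of each strand. The miR-23, miR-24 and miR-27 families are well known in endothelial cells and in blood vessel growth, in the differentiation of blood, fat and muscle cells, and in several cancers.

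The mature sequences show which members can share targets, and they are printed with the seed in capitals, from RefSeq on GRCm38.p6.
miR-23a: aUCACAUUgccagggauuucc
miR-27a: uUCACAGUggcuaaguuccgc
miR-27b: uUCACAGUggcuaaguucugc
miR-24: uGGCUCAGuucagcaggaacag
The seed UCACAGU is common to miR-27a and miR-27b, and over 21 bases they differ by C19U, counted from the 5′ end with the miR-27a base first. The assay therefore tells miR-27a from miR-27b by a single base, and how far each probe also captures the other was not tested. The seed of miR-24, GGCUCAG, is not that of miR-27 or of miR-23a. The fifth member is miR-23b, whose mature sequence was missing from the source used. Its seed and its bases are therefore not compared with those of miR-23a here. How far the probes of miR-23a and miR-23b also capture each other's target was not tested either.

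The a cluster lies on the plus strand at chr8:84208518-84208921, where Mir23a, Mir27a and Mir24-2 follow each other within 404 bases. The b cluster lies on the plus strand at chr13:63300484-63301275, where Mir23b, Mir27b and Mir24-1 span 792 bases inside Aopep, a protein-coding gene. The hairpins of Mir24-2 and Mir24-1 are printed with the mature strand in capitals, because they show why miR-24 cannot be assigned to a cluster.
Mir24-2: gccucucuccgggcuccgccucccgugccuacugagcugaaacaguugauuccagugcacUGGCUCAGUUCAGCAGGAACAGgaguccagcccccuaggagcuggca
Mir24-1: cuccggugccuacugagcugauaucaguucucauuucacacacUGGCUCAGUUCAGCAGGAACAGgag
The mature strand is the same in both, at bases 61 to 82 of Mir24-2 and bases 44 to 65 of Mir24-1, so the single miR-24 value is the sum of both sources. No probe for the opposite strand of any of these hairpins was found on the panel.

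The deposited value of a probe is its barcode count after subtraction of what the 6 negative controls averaged in that lane. Lanes differ in total: mouse miRNA values summed to 26420 to 46507 in the cultures, 62583 to 115278 in lung metastasis, 111602 to 184501 in PT, 525697 to 560247 in NMG, and 590022 and 2335745 in normal lung. Lanes were brought to a common scale with factors from a trimmed mean of M-values (TMM), which gave the normalized values. A probe counts as detected where it exceeds the negative controls by 2 SD over their mean, which took 4 to 21.4 counts. By this measure miR-23a, miR-23b and miR-27a were detected in 24 of 24 lanes, miR-24 in 22 and miR-27b in 20. The lanes without miR-24 were monolayer replicate 2 and 3D-spheres replicate 1. The lanes without miR-27b were those 2, 3D-spheres replicate 2 and lung metastasis replicate 2. The levels of different probes are not comparable, because each captures its target with its own efficiency, so levels are compared between samples and not between members.

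In normal lung every member had its highest mean. The normalized value of miR-23a was 5196 and 4270 in the 2 normal lungs and 2486 and 2010 in the 2 NMG samples. In carcinoma its 5 values were 1975, 1570, 2765, 2198 and 6190, and in the 7 EMT-like areas it ran from 2301 over a median of 2470 to 3145. Carcinoma replicate 5 stood apart from the other 4, and NMG lay within the range of carcinoma. The 4 lung metastases had 1035, 1284, 631 and 1360. The monolayers had 1379 and 322 and the 3D-spheres 1115 and 1165. All 4 metastases and all 4 cultures were below every PT and NMG sample. The means were 4733 ± 655 (SD, n = 2) in normal lung, 2939 ± 1868 (n = 5) in carcinoma, 2667 ± 354 (n = 7) in EMT-like areas, 2248 ± 336 (n = 2) in NMG, 1140 ± 35.4 (n = 2) in 3D-spheres, 1078 ± 328 (n = 4) in lung metastasis and 851 ± 747 (n = 2) in the monolayer. Along this order the ranges of neighbouring groups overlapped at every step except from NMG to 3D-spheres.

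The other a-cluster member, miR-27a, had 3992 and 3937 in normal lung, 2049 and 1585 in NMG, and 1633, 1168, 2042, 1499 and 2716 in carcinoma. It ran from 1171 over 1578 to 2268 in EMT-like areas and was 878, 1111, 685 and 816 in lung metastasis. The monolayers had 975 and 320 and the 3D-spheres 321 and 362. Normal lung lay above all other groups, NMG, carcinoma and EMT-like areas overlapped, and every lung metastasis lay below every PT sample.

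The b-cluster member miR-23b had 2564 and 2037 in normal lung, 361 and 548 in NMG, and 1075, 693, 1274, 953 and 1766 in carcinoma. It ran from 688 over 1004 to 1140 in EMT-like areas and was 650, 557, 450 and 604 in lung metastasis. The monolayers had 353 and 108 and the 3D-spheres 148 and 223. Unlike miR-23a and miR-27a, it did not overlap between NMG and either area of the primary tumor, with NMG below, as was the case for 7.72% of all probes in carcinoma and 9.43% in EMT-like areas. Lung metastasis and NMG overlapped.

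The values of miR-27b, the dimmest member, were 88.6 and 107 in normal lung, 31.7 and 37.5 in NMG, and 69.9, 49.6, 75.6, 81.2 and 61.3 in carcinoma. They ran from 43.0 over 82.0 to 88.1 in EMT-like areas and were 13.2, 32.4, 26.95 and 26.2 in lung metastasis. The monolayers had 54.4 and 28.5 and the 3D-spheres 27.9 and 19.8, and of these 4 only the first was above its detection limit. Every PT sample was above every NMG sample and every metastasis.

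The shared member miR-24 had 806 and 615 in normal lung, 127 and 189 in NMG, and 242, 300, 276, 254 and 469 in carcinoma. It ran from 262 over 331 to 464 in EMT-like areas and was 203, 179, 191 and 275 in lung metastasis. The monolayers had 157 and 22.4 and the 3D-spheres 33.1 and 54.5. Every PT sample was above both NMG samples, as for miR-23b and miR-27b, while the ranges of lung metastasis and carcinoma overlapped.

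**Figure D1:**
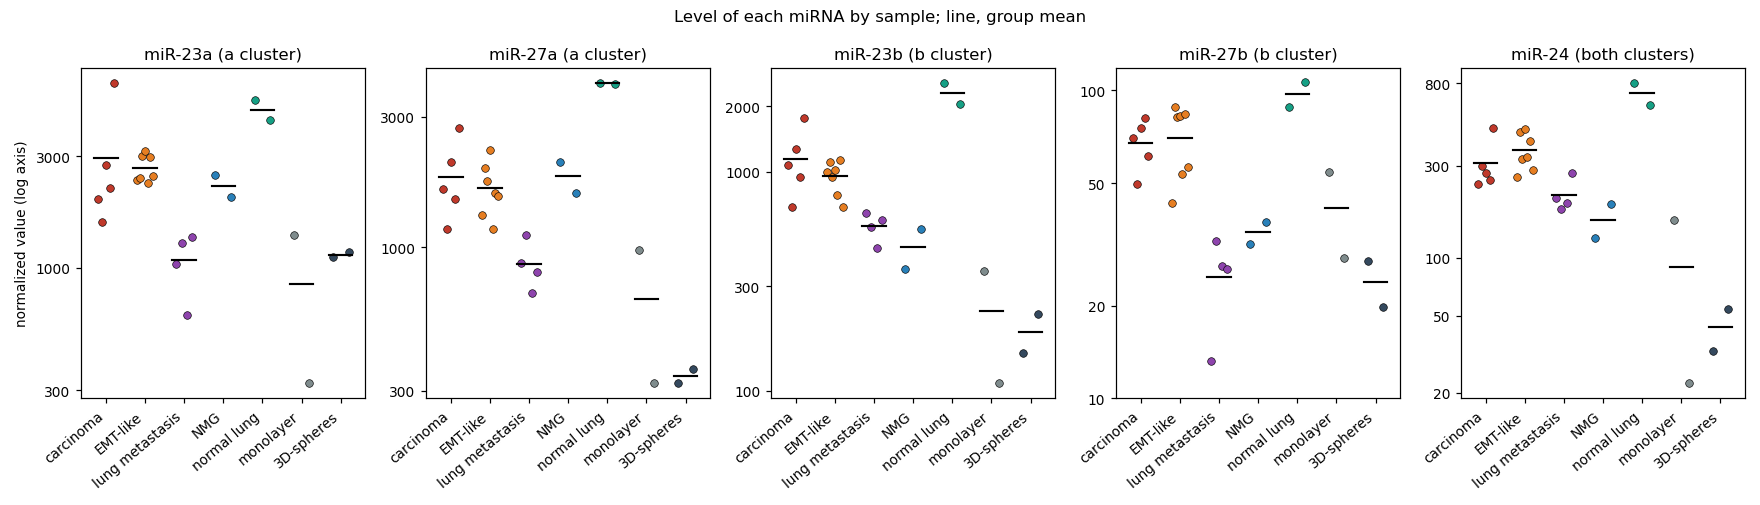
Normalized value (log axis, separate for each panel) of the 5 miRNAs in each of the 24 samples by group, with a line at the group mean; axes are not comparable between panels because probes differ in efficiency. The normal lung samples have the highest mean in each panel, and miR-23a in carcinoma replicate 5 stands at 6190, above the other 4 carcinoma areas.

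The first comparison asked whether the members differ between the epithelial and the spindle-shaped areas of the primary tumor. None of the 5 was called by limma at an adjusted p under 0.05, where 0.172% of all 583 probes tested were called (1 probe, with 81 at an unadjusted p under 0.05). The log2 fold change of carcinoma against EMT-like areas was -0.03 for miR-23a (approximate 95% confidence interval -0.66 to 0.60) and 0.11 for miR-27a (-0.38 to 0.59). It was 0.22 for miR-23b (-0.29 to 0.73), -0.02 for miR-27b (-0.53 to 0.48) and -0.24 for miR-24 (-0.87 to 0.40). The intervals use the normal distribution, so they are narrower than those of the t distribution behind the limma p-values. These intervals include 0 and leave room for changes of either sign. In the 4 animals or pools that gave both areas, miR-23a, miR-24 and miR-27b were each lower in carcinoma in 3, miR-27a in 2 and miR-23b in 1.

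The second question was how PT differs from NMG. In carcinoma miR-23b was higher than in NMG, with 1152 ± 403 (SD, n = 5) against 454 ± 132 (n = 2), which limma put at 1.30 on the log2 scale (standard error 0.37, adjusted p = 0.0117), where 5.49% of probes were called higher. In EMT-like areas its log2 fold change against NMG was 1.08 (standard error 0.35, adjusted p = 0.0270), where 4.46% of probes were called higher. Both comparisons share the 2 NMG samples. The other b-cluster member and miR-24 were not called: miR-27b had a log2 fold change of 0.93 in carcinoma (adjusted p = 0.0658) and 0.95 in EMT-like areas (0.0547), and miR-24 had 0.95 (0.142) and 1.18 (0.0571). Of the a cluster, miR-23a had 0.21 and 0.24 and miR-27a -0.05 and -0.16, with adjusted p from 0.783 to 1. The median over all probes was -0.68 in carcinoma and -0.30 in EMT-like areas, against 0.93 and 0.95 over the 5 members.

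The direction of these contrasts depended on how lanes were scaled, and NMG lanes held more signal in total. With no scaling, miR-23b was at -0.27 in carcinoma and -0.10 in EMT-like areas against NMG, neither called, and miR-23a (-1.36) and miR-27a (-1.63) were called lower in carcinoma, as was miR-27a (-1.34) in EMT-like areas. When lanes were scaled by the miRNA total or by the 100 most abundant miRNAs, miR-23b, miR-24 and miR-27b were all called higher in both areas, and with scaling by the 4 mRNA controls no member was called. Without NMG replicate 1, the call of miR-23b was lost in both comparisons, and without NMG replicate 2 it was lost in EMT-like areas. Endothelial, smooth muscle and erythroid markers moved with the contrast: all 2, 2 and 3 of them were lower in each area than in NMG. So were 2 of the 3 mesenchymal and 3 of the 4 hematopoietic markers. The shares of all probes called lower are not given here, so these counts cannot be set against them. The median over all probes was itself below 0, at -0.68 and -0.30. The summed value of the endothelial pair was 1067 to 1894 in carcinoma, 1314 to 2626 in EMT-like areas and 10971 to 17649 in NMG. The part of these markers in the members' values was not tested. In such samples fewer cells of a type and less RNA per cell cannot be told apart.

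**Figure D2:**
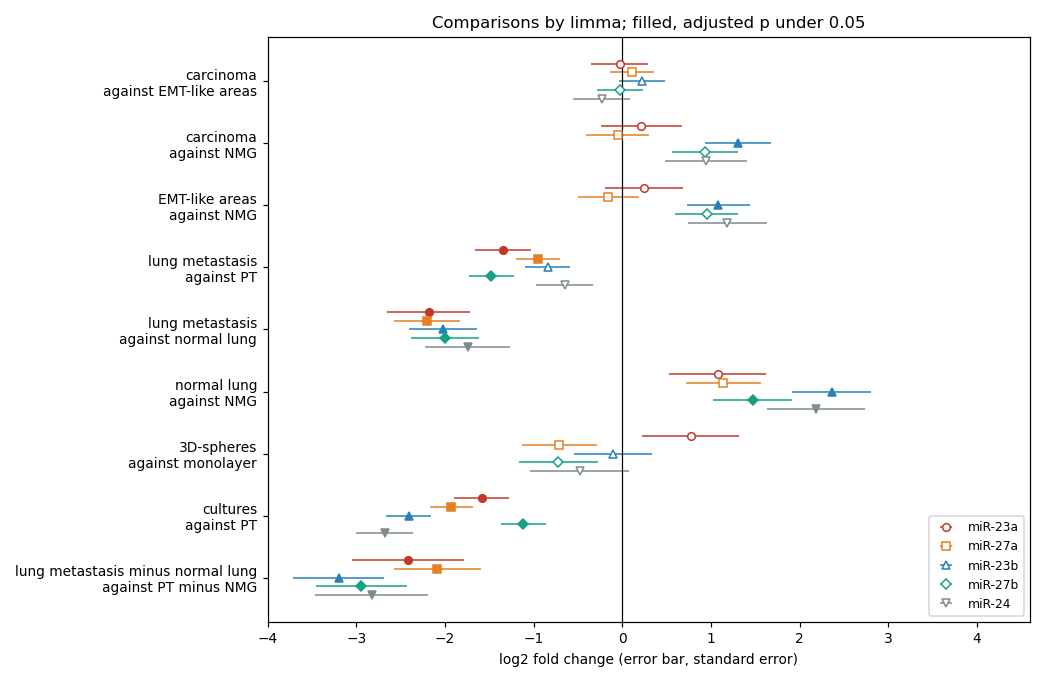
Log2 fold change (horizontal axis) of the 5 miRNAs in each of 9 comparisons by limma, with bars of 1 standard error; filled symbols have an adjusted p under 0.05. All 5 miRNAs lie left of 0, filled, for lung metastasis against normal lung, for cultures against PT and for the difference of differences, and miR-27b was under the detection limit in 3 of the 4 cultures.

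A ratio of an a-cluster to a b-cluster member within a lane needs no scaling, since a lane factor cancels apart from the pseudocount of 1. For a dim probe such as miR-27b that pseudocount and the background keep the factor from cancelling fully. The ratio compares groups, and its own size has no meaning because the probes differ in efficiency. The ratio of miR-23a to miR-23b was 1.84, 2.26, 2.17, 2.30 and 3.50 in carcinoma and ran from 2.18 over 2.92 to 3.59 in EMT-like areas. It was 6.88 and 3.67 in NMG and 2.03 and 2.10 in normal lung. The lung metastases had 1.59, 2.30, 1.401 and 2.25, the monolayers 3.90 and 2.94 and the 3D-spheres 7.45 and 5.18. NMG and the 3D-spheres were the highest groups, and both NMG samples lay above all 12 PT samples.

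The ratio of miR-23a to miR-23b had a geometric mean of 2.61 in PT (n = 12) and 5.03 in NMG (n = 2), which is 1.93-fold lower in PT (exact two-sided permutation p = 0.0110, the smallest that 91 splits allow, and 0.0366 after Benjamini-Hochberg adjustment over 10 ratio tests). Without NMG replicate 1 the difference was -0.49 on the log2 scale and without NMG replicate 2 it was -1.4, with exact p of 0.154 and 0.0769, and with a lone NMG sample no p under 0.0769 can be reached. The difference had the same sign against each NMG sample and differed in size between them. Here and in the other permutation tests of ratios between groups, samples of the same animal were treated as separate. Within PT the ratio was 2.36 in carcinoma and 2.80 in EMT-like areas, which the exact permutation test did not separate (p = 0.167, adjusted 0.238). Without carcinoma replicate 5 that difference was -0.39 on the log2 scale, with an exact p of 0.0242, not adjusted. With all samples it was -0.12 among animals labelled with letters (exact p = 0.500) and -0.10 among those labelled with numbers alone (exact p = 0.667). Within animals or pools that gave both areas it was -0.14.

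The ratio of miR-27a to miR-27b took values of 23.0, 23.0, 26.7, 18.2 and 43.4 in carcinoma, ran from 18.6 over 21.8 to 30.0 in EMT-like areas, and was 63.8 and 41.9 in NMG. Its geometric mean was 24.4 in PT against 51.7 in NMG, 2.12-fold lower in PT (exact two-sided permutation p = 0.0220, adjusted 0.0440), in the same direction as the ratio of miR-23a to miR-23b. Here 1 of the 12 PT samples, carcinoma replicate 5, lay above the lower of the 2 NMG samples. Without NMG replicate 1 the difference was -0.78 on the log2 scale and without NMG replicate 2 it was -1.38, with exact p of 0.154 and 0.0769.

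**Figure D3:**
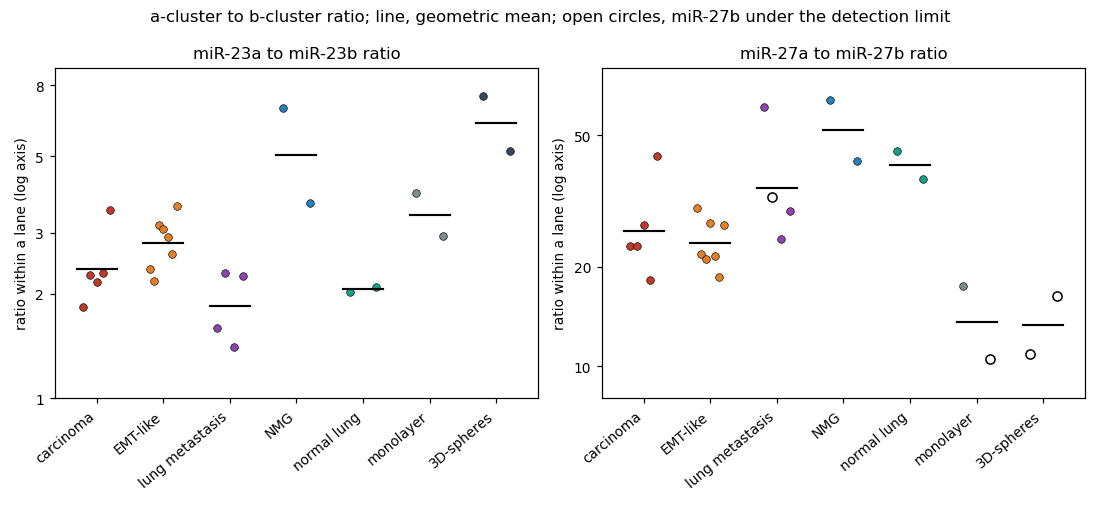
Ratio of miR-23a to miR-23b (left) and of miR-27a to miR-27b (right) within each lane (log axes), from deposited values with a pseudocount of 1, by group, with a line at the geometric mean; open circles are lanes with miR-27b under the detection limit. The NMG mean is above the PT groups in both panels (5.03 and 51.7), while the cultures are high on the left and low on the right.

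The next comparison set lung metastasis against PT. Of the 5 members, 3 were called lower in metastasis, where 2.57% of all probes were called lower: miR-23a at -1.34 on the log2 scale (standard error 0.32, limma adjusted p = 0.0167), miR-27a with -0.95 (0.25, adjusted p = 0.0305) and miR-27b with -1.48 (0.26, adjusted p = 0.00112). The values of miR-23b (-0.84, adjusted p = 0.0740) and miR-24 (-0.65, adjusted p = 0.340) did not pass. The median was -0.95 over the 5 members and 0 over all probes. All probes are the 583 with a value above 0 in any sample, viral ones included. Of the 566 mouse probes, 135 to 258 were detected in a PT or metastasis lane, so many of the 583 were near background. No overlap between the groups, with metastasis lower, was seen for miR-23a, miR-23b, miR-27a and miR-27b, and for 1.54% of all probes. In the 4 animals or pools that gave both, each of the 5 members was lower in metastasis in 4 of 4, by a mean on the log2 scale of -1.48 for miR-23a, -1.003 for miR-27a, -0.87 for miR-23b, -1.44 for miR-27b and -0.70 for miR-24.

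Labels name the animals either with letters or with numbers alone, and each of these series held the same direction. The difference of lung metastasis from PT was -1.07 for miR-23a in the lettered series (1 metastasis, 5 PT samples) and -1.54 in the numbered series (3 and 7), and for miR-27b -2.18 and -1.28. Direction also held with no scaling and under all other scalings of the lanes. The number called was less stable: without lung metastasis replicate 1 or without replicate 3 only miR-27b was called, without replicate 4 miR-23a and miR-27b, and without carcinoma replicate 2 miR-23b was called as well. With scaling by the mRNA controls miR-27a was not called, and miR-23b was called with no scaling, with either of the other scalings, with a filter of at least 20 in 2 samples, with a background set higher by 2 SD of the negative controls and in a fit of the compared groups alone. The value of miR-27b, which lung metastasis replicate 2 held under the detection limit, ran from -3.30 with that higher background to -1.19 with a pseudocount of 10 and was called under each alternative. Of the marker lists, the endothelial pair did not pass in this comparison (median log2 fold change 0.08), and 2 of the 3 mesenchymal markers were lower, where 2.57% of all probes were. In metastasis 1 hematopoietic, 1 erythroid and 1 epithelial marker were higher, and the share of all probes called higher is not given here. The summed mesenchymal value was 230 to 995 in metastasis, 882 to 1885 in carcinoma and 1093 to 2844 in EMT-like areas, and its part in the members' values was not tested.

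The ratios of a to b members did not move together from PT to lung metastasis. That of miR-23a to miR-23b was 1.84 in metastasis and 2.61 in PT, 1.42-fold lower (exact two-sided permutation p = 0.0165, adjusted 0.0412). The ranges overlapped, with 1.401 to 2.30 in metastasis and 1.84 to 3.59 in PT. The permutation treated samples of the same animal as separate. The difference was -0.44 on the log2 scale within the lettered series (1 metastasis against 5 PT samples). Within the numbered series it was -0.63 (exact p = 0.00833). Without lung metastasis replicate 1 the exact p was 0.0681 and without replicate 3 it was 0.0879. The ratio of miR-27a to miR-27b was higher in metastasis, 34.5 against 24.4, but this did not pass after adjustment (exact p = 0.0462, adjusted 0.0769). Its 4 metastasis values were 60.7, 32.4, 24.3 and 29.5, with the highest in the pooled replicate, where miR-27b had a deposited value of 10, and without that sample the log2 difference was 0.23 (exact p = 0.303).

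Lung metastasis was also set against normal lung, the tissue of its site. All 5 members were called lower in metastasis, where 42.2% of all probes were called lower: the log2 fold changes were -2.19 for miR-23a, -2.20 for miR-27a, -2.03 for miR-23b, -2.004 for miR-27b and -1.75 for miR-24, with limma adjusted p from 4.52e-05 to 0.00567. No metastasis reached a normal lung sample for any member, as for 37.9% of all probes. The median over all probes was -0.90, against -2.03 over the members. The size of these differences rests on the scaling: with scaling by the miRNA total none of the 5 was called, though all stayed below 0. The endothelial pair summed to 67772 to 70141 in normal lung and 819 to 3114 in metastasis, and its part in the members' values was not tested. The a to b ratios did not separate metastasis from normal lung, with 1.84 against 2.06 for miR-23 (exact p = 0.667) and 34.5 against 40.6 for miR-27 (exact p = 0.600), and 6 samples allow no p under 0.0667.

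Between the normal tissues, normal lung was higher than NMG in miR-23b by 2.36 on the log2 scale (standard error 0.44, limma adjusted p = 0.000582), in miR-24 by 2.18 (0.55, adjusted p = 0.00980) and in miR-27b by 1.47 (0.44, adjusted p = 0.0324), where 10.5% of probes were called higher. The a-cluster members miR-23a (1.08, adjusted p = 0.227) and miR-27a (1.14, adjusted p = 0.0774) were not called. For all 5 members both normal lungs lay above both NMG samples, as they did for 32.4% of all probes. Leaving out any of the 4 samples ended the call of miR-24, of miR-27b or, without NMG replicate 1, of both, while miR-23b stayed called. The lung sample with the largest total was replicate 2, and without it miR-23b and miR-24 were called.

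A difference of differences asked whether the change from normal lung to metastasis equals that from NMG to PT. It was lower for all 5 members, where 10.8% of probes were called lower: -2.42 for miR-23a (limma adjusted p = 0.0132), -2.09 for miR-27a (0.00601), -3.20 for miR-23b (0.000125), -2.95 for miR-27b (0.000343) and -2.83 for miR-24 (0.00431). The metastases were below normal lung in every member, while PT against NMG was near 0 for miR-23a and miR-27a and above 0 for the other members. With scaling by the miRNA total, miR-23b, miR-24 and miR-27b were called, and without NMG replicate 2 miR-23a was not. This contrast holds both the high level in normal lung and the change in the tumors.

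Cultured JygMC(A) cells were compared with PT, which holds the same cells in a host. All 5 members were called lower in the cultures, where 22% of probes were called lower: the log2 fold changes were -1.59 for miR-23a, -1.93 for miR-27a, -2.41 for miR-23b, -1.12 for miR-27b and -2.68 for miR-24, with limma adjusted p from 1.11e-07 to 0.00158. The groups did not overlap, as for 11.8% of all probes with the cultures lower, except for miR-27b, which 3 of the 4 cultures held under the detection limit. When the 100 most abundant miRNAs set the scale, the direction of 3 members turned, to 0.36 for miR-23a, 0.015 for miR-27a and 0.79 for miR-27b (adjusted p = 0.0100 for the last), and miR-24 stayed called lower. With scaling by the miRNA total, miR-23b, miR-24 and miR-27a were called. Both endothelial markers and all 3 mesenchymal markers were under the detection limit in all 4 cultures, while every member but miR-24 and miR-27b was detected in each of them, so miR-23a, miR-23b and miR-27a were measured in tumor cells without those markers.

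The ratio of miR-23a to miR-23b was 4.59 in the cultures against 2.61 in PT, 1.76-fold higher (exact two-sided permutation p = 0.00330, adjusted 0.0165), with monolayer replicate 2 inside the PT range. The ratio of miR-27a to miR-27b went the other way, with 17.5, 10.5, 10.9 and 16.3 in the cultures, all below every PT sample (exact p = 0.000549, the smallest that 1820 splits allow, adjusted 0.00549). Since miR-27b was under the detection limit in 3 of these lanes, the second ratio is set by background there: with a background higher by 2 SD subtracted it turned to a log2 difference of 1.06 (exact p = 0.0011). No direction can be read from it.

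The 3D-spheres and the monolayer did not differ in any member by limma, where 4.63% of probes were called and 84 had an unadjusted p under 0.05. The log2 fold change of spheres against monolayer was 0.77 for miR-23a (approximate 95% confidence interval, from the normal distribution, -0.30 to 1.84). It was -0.71 for miR-27a (-1.55 to 0.12), -0.10 for miR-23b (-0.97 to 0.76) and -0.48 for miR-24 (-1.57 to 0.60). None is given for miR-27b, which both sphere lanes held under the limit. For miR-24, monolayer replicate 2 and 3D-spheres replicate 1 were under the limit, and 3D-spheres replicate 2 had a deposited value of 22. Its values here thus lie partly at background. Monolayer replicates were far apart in miR-23a (1379 and 322), and the fold changes depended on which of them was kept. Without monolayer replicate 1, the log2 fold change of miR-23a was 1.82. Without monolayer replicate 2, it was -1.86 for miR-24 and -1.51 for miR-27a. Each of these rests on a lone monolayer, and that of miR-24 on sphere lanes at or near background.

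**Figure D4:**
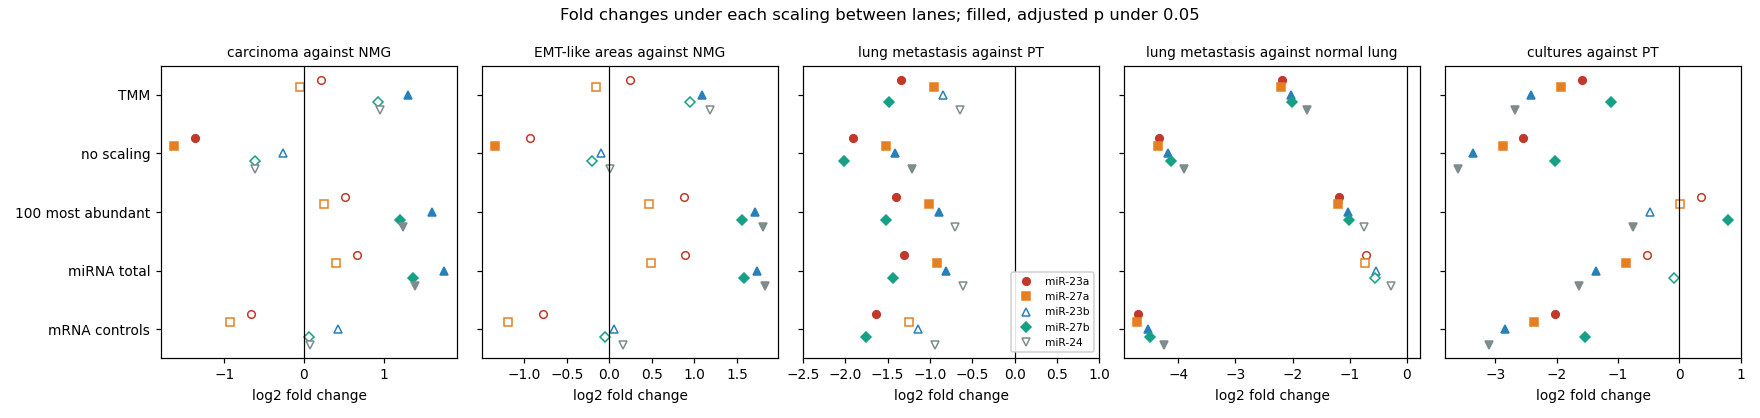
Log2 fold change of the 5 miRNAs in 5 comparisons (panels) under each scaling between lanes (rows); filled symbols have an adjusted p under 0.05. For lung metastasis against PT all values lie left of 0 under every scaling, whereas those for carcinoma and EMT-like areas against NMG and for cultures against PT cross 0.

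Across the 24 samples the member closest to miR-24 was miR-23b, with a Pearson correlation of log2 normalized values of 0.955 (0.821 after group means were removed). The correlation of miR-24 with miR-27a was 0.880, with miR-23a 0.795 and with miR-27b 0.672. Among 195 other probes, those most like miR-23a were miR-27a (0.879), miR-23b (0.840) and miR-146a (0.827), and those most like miR-23b were miR-24, miR-27a (0.899) and miR-146a (0.887). For miR-24 they were miR-23b, miR-146a (0.880) and miR-27a, and for miR-27b they were miR-27a (0.749), miR-335-5p (0.720) and miR-23a (0.720). The probes most like miR-27a were not members but miR-450a-5p (0.933), miR-1902 (0.915) and miR-130a (0.902). Samples share lanes, scaling and groups, and after group means were removed the correlation of all pairs of 196 detected probes had a median of 0.0355 and a 95th percentile of 0.643. On that footing miR-27b had 0.503 with miR-27a, 0.435 with miR-335-5p and 0.337 with miR-23a. For miR-146a it was 0.474 with miR-23b, 0.39 with miR-24 and 0.729 with miR-23a, and miR-1902 had 0.625 with miR-27a. The other pairs listed had 0.718 to 0.876. No such background was computed for the correlations over all 24 samples. Within groups of the 16 tumor and metastasis samples, miR-23a correlated with miR-23b (0.795) and with miR-27a (0.795), and miR-27b with miR-27a by 0.428. There miR-24 correlated with miR-23a by 0.617, with miR-23b by 0.568, with miR-27a by 0.543 and with miR-27b by 0.247. In these samples miR-23a thus had the highest correlation with miR-24, but 0.617, 0.568 and 0.543 lie close together and no interval was computed. Carcinoma replicate 5, which stood apart in both miR-23a and miR-24, is among them. No member can be named as the closest to miR-24 there.

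The closeness over all 24 samples can also be read without any scaling, from ratios within lanes. Of the 10 pairs of members, miR-23b to miR-24 had the smallest spread, an SD of 0.360 on the log2 scale over the 24 lanes, with group means that spanned 0.629. The pair of the a cluster, miR-23a to miR-27a, followed with an SD of 0.473 and a span of 1.49. Ratios of miR-23a to miR-24 had an SD of 0.730 and a span of 2.38, from lung metastasis up to 3D-spheres. The pair of the b cluster, miR-23b to miR-27b, had an SD of 0.783 and a span of 2.29, from the monolayer up to normal lung, and part of its lanes have miR-27b near background. The spread of the b-cluster pair was above that of several pairs from different clusters, such as miR-23b to miR-27a with an SD of 0.484. After group means were removed, miR-23b to miR-24 no longer had the smallest SD. It was 0.281, against 0.246 for miR-23a to miR-27a and 0.247 for miR-23b to miR-27a. Monolayer replicate 2 and 3D-spheres replicate 1 held miR-24 under the detection limit.

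Other miRNAs described with blood vessel growth were taken as a list of 11 probes, among them miR-126, miR-210 and miR-221. Carcinoma against EMT-like areas gave no call among them. Against NMG, 1 was higher and 6 lower in carcinoma, and 2 were higher and 6 lower in EMT-like areas. Of all probes, 5.49% and 4.46% were called higher, and the shares called lower are not given here. The medians were -1.43 and -1.42, against 0.93 and 0.95 for the 5 members. The carcinoma median is the value of miR-296-5p, which was among those called lower in both areas. Both miR-296-5p and miR-92a were under the detection limit in all carcinoma, EMT-like and NMG samples. In lung metastasis against PT 2 of the 11 were lower (median -0.49), where 2.57% of all probes were. Against normal lung 8 were lower (median -3.04), where 42.2% of all probes were. In cultures against PT 6 were lower (median -1.60), where 22% of all probes were. In normal lung against NMG 4 were higher and 1 lower, where 10.5% of all probes were higher. In 3D-spheres against the monolayer 1 was higher, where 4.63% of all probes were called in either direction.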

How the data were processed

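Total RNA of 24 samples was assayed with the NanoString nCounter mouse miRNA panel. The deposited values are counts minus the lane's mean negative control, so they are no longer counts and 35.2% of miRNA values are below 0; per the labels Partek was used, and the scaling is not given in the sources used here. The members and lists were chosen with earlier results of these data known.

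Values were floored at 0, scaled by TMM factors (trims of 30% and 5%, reference carcinoma replicate 2) and compared as log2(value + 1) by limma 3.58.1 with a mean-variance trend in R 4.3.3, with all 7 conditions in 1 fit and Benjamini-Hochberg adjustment over 583 probes. Ratios used floored values plus 1 and exact permutation tests in Python 3.11.15 with numpy 2.4.6 and pandas 2.3.3. Procedures were tested on simulated data. When a sample was left out, each lane kept its factor. Likeness was taken among mouse probes detected in at least 12 lanes. The number of lanes limits the precision of all values.

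The marker lists were endothelial, smooth muscle, mesenchymal, hematopoietic, erythroid, epithelial and skeletal muscle miRNAs. Named were the 5 members, their 3 most alike probes and the vessel growth list. Alternatives were other scalings, a filter of 20 in 2 samples, a higher background (mean plus 2 SD, floor of 1), a pseudocount of 10, a fit without the other groups, a replicate block of animal or culture number, a term for the series of animals, and each sample left out in turn. Replicate numbers do not pair samples, but the labels name animals. The correlation of deviations from group means over 196 probes had a median of 0.103 (-0.307 to 0.295) in 10 pairs of tumor samples from the same animal, and -0.0902 in 110 other pairs. Where nothing says that samples came from separate cultures, p-values measure the spread between samples only.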

Additional observations from a re-analysis of the deposited data

Results flagged for a closer look

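Carcinoma replicate 5 stood apart from the other 4 carcinoma areas in miR-23a, with a normalized value of 6190 (its gap to the nearest value was 0.741 of the group's range, against a critical value of 0.71), in miR-24, with 468.8 (0.744), and in the ratio of miR-23a to miR-23b, with 3.50 (0.719). In 21 groups of values looked at in this way, chance alone flags about 1 in 20. Without this sample the calls of lung metastasis against PT and of carcinoma against NMG named the same members. The ratio of miR-23a to miR-23b then differed by -0.39 on the log2 scale between carcinoma and EMT-like areas (exact permutation p = 0.0242, not adjusted). That p-value follows the removal of a sample picked by its own values. With all samples the difference was -0.12 within the lettered series and -0.10 within the numbered series, so no difference between the areas is read from it.

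The change from normal lung to lung metastasis differed from that from NMG to PT in each member by a test of the difference itself, with log2 values of -2.42 for miR-23a, -3.20 for miR-23b, -2.83 for miR-24, -2.09 for miR-27a and -2.95 for miR-27b. The comparison rests on 2 normal lungs and 2 NMG samples.

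Of the other marker lists, the 4 skeletal muscle markers had 2 lower and 0 higher in carcinoma against NMG, and the 4 hematopoietic markers 1 higher and 3 lower. Of all probes 5.49% were called higher there, and the share called lower is not given here.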

How the results depend on the processing

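Carcinoma against EMT-like areas gave no called member under any alternative. The replicate block changed no call: members called stayed at 0, 1, 1, 3, 5, 3, 0, 5 and 5 over the 9 comparisons, and within animals the log2 ratio difference of carcinoma from EMT-like areas was -0.14 for miR-23 and 0.041 for miR-27. Scaling shifts all probes: for carcinoma against NMG the median over the probes tested moved by -1.15 with no scaling, 0.29 with the 100 most abundant, 0.35 with the total and -0.58 with the mRNA controls. The causes of changed calls were not tested.

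Of 5 members in carcinoma against NMG, 2 were called (both lower) with no scaling, 3 with the 100 most abundant, 3 with the total, 0 with the mRNA controls, 0 with the higher background, and 2 with a pseudocount of 10 or only the groups compared. In EMT-like areas against NMG 3 were called with the 100 most abundant, the total, the filter, a pseudocount of 10 and only the groups compared, and 0 with the mRNA controls. With no scaling that count was 1, but of miR-27a (lower) in place of miR-23b. Other changed counts were 5 in lung metastasis against PT with no scaling, 4 (miR-23b gained) with the 100 most abundant, the total, the filter, the higher background and only the groups compared, and 2 (miR-27a lost) with the mRNA controls, 0 in lung metastasis against normal lung with the total and 4 (miR-24 lost) with the 100 most abundant, 1 in normal lung against NMG with the total and with the higher background, 2 (miR-27b lost) with the 100 most abundant and only the groups compared and 5 with the mRNA controls, 1 in 3D-spheres against the monolayer with the 100 most abundant, 2 (miR-27b higher, miR-24 lower) in cultures against PT with the 100 most abundant and 3 with the total, and, in the difference of differences, 3 with the total and 4 (miR-24 lost) with the higher background. The next ranges are for the members called in the main fit with TMM scaling. They run over all alternatives, also those in which the call was lost. The log2 values ran from -4.71 to -0.27 in lung metastasis against normal lung and from 0.60 to 3.61 in normal lung against NMG. In cultures against PT they ran from -5.20 to 0.79, and in the difference of differences from -4.75 to -1.18. The ratio of miR-23a to miR-23b in lung metastasis against PT was -0.44 in the lettered series. That of miR-27a to miR-27b was 0.071 with a pseudocount of 10, 1.30 in the lettered series and 0.24 in the numbered series.

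Direction turned in these cases. For carcinoma against EMT-like areas miR-23b and miR-27a were -0.17 and -0.29 with no scaling, -0.11 and -0.23 with the 100 most abundant, and -0.18 and -0.29 with the higher background. There miR-27a was -0.095 with the total, and miR-23a and miR-27b were 0.12 and 0.12 with the mRNA controls and 0.090 and 0.089 with the series of animals as a term. For carcinoma against NMG, with no scaling miR-23a was -1.36, miR-23b -0.27, miR-24 -0.62 and miR-27b -0.62. There miR-27a was 0.24 with the 100 most abundant and 0.40 with the total, and miR-23a was -0.67 with the mRNA controls and -0.14 with the higher background. For EMT-like areas against NMG, with no scaling miR-23a was -0.94, miR-23b -0.096 and miR-27b -0.21. There miR-27a was 0.47 with the 100 most abundant and 0.49 with the total, and with the mRNA controls miR-23a was -0.79 and miR-27b -0.054. For 3D-spheres against the monolayer the mRNA controls gave 0.58 for miR-23b and 0.19 for miR-24. For cultures against PT the 100 most abundant gave 0.36 for miR-23a, 0.015 for miR-27a and 0.79 for miR-27b. The ratio of miR-27a to miR-27b turned to -0.081 for carcinoma against EMT-like areas in the lettered series, and with the higher background to 1.28 for lung metastasis against normal lung and 1.06 for cultures against PT.

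Leaving out each sample in turn gave 0 to 2 members called in carcinoma against NMG, in EMT-like areas against NMG and in 3D-spheres against the monolayer, 1 to 4 in lung metastasis against PT, 4 to 5 in lung metastasis against normal lung (miR-24 was lost without normal lung replicate 1) and in the difference of differences, 1 to 2 in normal lung against NMG and 5 in cultures against PT. Without carcinoma replicate 2, miR-27b was also called in carcinoma against NMG, and without EMT-like replicate 1 or 5 in EMT-like areas. A lone sample left in a group was taken to vary as the other groups do. Ranges that include 0 were, for carcinoma against EMT-like areas, -0.35 to 0.15 for miR-23a, -0.055 to 0.25 for miR-27a, -0.13 to 0.080 for miR-27b and -0.065 to 0.25 for the ratio of miR-27a to miR-27b. They were -0.10 to 0.39 for miR-23a and -0.24 to 0.13 for miR-27a in carcinoma against NMG, -0.34 to 0.027 for miR-27a in EMT-like areas against NMG, and, in 3D-spheres against the monolayer, -0.27 to 1.82 for miR-23a, -0.95 to 0.75 for miR-23b, -1.86 to 0.89 for miR-24 and -1.51 to 0.089 for miR-27a. The ratio of miR-23a to miR-23b ran from -1.40 to -0.49 for PT against NMG, -0.39 to -0.16 for carcinoma against EMT-like areas and -0.61 to -0.37 for lung metastasis against PT. That of miR-27a to miR-27b ran from -1.38 to -0.78 for PT against NMG and 0.23 to 0.67 for lung metastasis against PT. Background limits miR-27b most, whose deposited values were 8 to 35 in the cultures and 10 to 21 in lung metastasis.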
